A study of Homo sapiens with 13 samples.

Results

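The genes described here are 8 that detect double-stranded RNA or relay that signal: DDX58, which encodes RIG-I, IFIH1, which encodes MDA5, DHX58, which encodes LGP2, TLR3, MAVS, EIF2AK2, which encodes the kinase PKR, ADAR and IRF3. They were chosen by symbol for their known function, but with earlier results of these data known. Counts of them beside shares of all genes are therefore not those of an unselected set. All 8 were found among the 22613 gene entries of each file. RNA was sequenced from LNCaP-abl, a prostate cancer cell line that descends from LNCaP and grows without androgen, kept in charcoal-stripped serum, 72 h after transfection with a pool of siRNAs. There was 1 library with a control siRNA (siControl2) and 1 each with siRNA to FOXM1, FOXA1, BRCA1, BRCA2, RAD21, CTCF, KDM1A, SMARCA4, EZH2, EED, and the noncoding RNAs MALAT1 and PCAT1, which makes 12 knockdown libraries. All 13 libraries, the control included, came from cells given siRNA duplexes with the same lipid reagent, and no untransfected library was analysed here.

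RIG-I, MDA5 and LGP2 are helicases of the cytoplasm that bind double-stranded RNA of viruses or of the cell itself. RIG-I and MDA5 signal through MAVS on mitochondria, and TLR3 senses such RNA in endosomes, and both routes lead to the transcription factor IRF3 and to interferon genes. PKR halts translation when it binds double-stranded RNA, and ADAR edits such RNA and makes it a poorer ligand for MDA5. Interferon in turn raises the genes of several of these sensors, so a high sensor transcript is also a mark of interferon exposure. The question was how the sensors and adaptors stood across the knockdowns, beside the interferon genes and the genes that interferon induces. Transcripts alone were measured, with no RNA ligand and no protein.

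With 1 library per group there is no replicate error and no test between conditions, and the read depth is unknown. Each group had its own siRNA pool, so the loss of a target and other effects of its pool cannot be told apart. Levels are in FPKM (sequenced fragments relative to transcript length and to all mapped fragments). Differences are on the log2(FPKM + 1) scale, knockdown minus control, on which changes of low genes come out too small, and a gene is counted as 2-fold higher or lower where it was at least 1 from the control on that scale, whatever its plain FPKM ratio. Of 8 luminal prostate markers, 6 passed the filter on low values (KRT8 between 84.2 and 223 FPKM), whereas KLK3 stayed between 0.0165 and 0.524 FPKM and KLK2 between 0.130 and 1.70. Of 7 leukocyte markers only PTPRC, CD68 and LYZ were analysed here, with a summed level of 8.96 to 16.1 FPKM that was highest in siFOXM1, where CD68 was at 11.1 FPKM and PTPRC at 1.10. The part of such cells in the results was not tested, and in bulk RNA fewer cells of a type and less RNA per cell cannot be told apart. In their own libraries, 8 of 11 targets checked were 2-fold lower, all but EED, BRCA2 and MALAT1. The library labelled siMALAT1 held more MALAT1 (21.7 FPKM) than the control (16.4), which goes against its label, and the siPCAT1 label has no check here. The siEED library held 4.13 FPKM of EED and the control 8.94. BRCA2 was at 1.23 FPKM in siBRCA2 against 3.25 in the control, but 8 other knockdowns held less of it, so its level does not set the siBRCA2 library apart. BRCA1 was at 1.83 FPKM in siBRCA1 against 11.1 in the control, but 2 other knockdowns held less of it. It was 2-fold lower in 10 of the 12 knockdowns, so its level does not set siBRCA1 apart either.

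Some of the 8 genes differed widely between libraries and others hardly did. The start regions of 5 of the 8 are shown first, and the part of these sequences in the levels was not tested. Each sequence is from RefSeq (GRCh38.p14, a later build than the hg19 of the expression values) and holds the 250 bases before the transcription start and the first 30 transcribed bases, 5′ to 3′. Capitals mark a pair of GAAA letters with 2 bases of any kind between them, the core of the interferon-stimulated response element that IRF factors bind, on either strand (on the opposite strand it reads TTTC, 2 bases, TTTC). In DDX58 they mark the closer pair with 1 base between, which was searched after that sequence had been read.
DDX58 (chr9:32526167-32526446, minus strand): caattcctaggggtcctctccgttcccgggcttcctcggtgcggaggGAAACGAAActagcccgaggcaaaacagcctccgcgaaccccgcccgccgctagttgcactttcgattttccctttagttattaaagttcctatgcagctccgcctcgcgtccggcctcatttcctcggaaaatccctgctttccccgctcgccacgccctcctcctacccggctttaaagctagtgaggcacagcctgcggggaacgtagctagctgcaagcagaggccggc
IFIH1 (chr2:162318655-162318934, minus strand): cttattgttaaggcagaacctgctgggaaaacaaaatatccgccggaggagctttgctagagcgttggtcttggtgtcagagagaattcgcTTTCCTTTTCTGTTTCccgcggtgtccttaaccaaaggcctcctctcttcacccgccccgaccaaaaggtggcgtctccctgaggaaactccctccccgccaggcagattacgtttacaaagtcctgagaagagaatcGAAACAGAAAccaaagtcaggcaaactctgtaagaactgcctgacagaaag
EIF2AK2 (chr2:37156951-37157230, minus strand): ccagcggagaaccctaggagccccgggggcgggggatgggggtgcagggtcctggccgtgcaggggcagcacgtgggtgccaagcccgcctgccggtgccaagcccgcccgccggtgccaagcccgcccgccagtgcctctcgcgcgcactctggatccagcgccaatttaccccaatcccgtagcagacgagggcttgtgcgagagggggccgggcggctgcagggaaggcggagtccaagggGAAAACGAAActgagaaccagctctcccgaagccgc
TLR3 (chr4:186068906-186069185, plus strand): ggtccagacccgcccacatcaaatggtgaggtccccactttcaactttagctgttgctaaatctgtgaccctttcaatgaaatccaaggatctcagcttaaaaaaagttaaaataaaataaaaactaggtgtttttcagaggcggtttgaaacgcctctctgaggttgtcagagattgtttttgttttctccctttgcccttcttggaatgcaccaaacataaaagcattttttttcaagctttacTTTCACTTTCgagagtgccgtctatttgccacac
MAVS (chr20:3846584-3846863, plus strand): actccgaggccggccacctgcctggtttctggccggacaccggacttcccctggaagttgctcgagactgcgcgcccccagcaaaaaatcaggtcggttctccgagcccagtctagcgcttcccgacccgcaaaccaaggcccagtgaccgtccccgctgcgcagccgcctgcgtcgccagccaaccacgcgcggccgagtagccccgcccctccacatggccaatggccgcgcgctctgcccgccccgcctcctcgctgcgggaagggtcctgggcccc

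IFIH1 held 3 matches to the pair spaced by 2 bases, of which 2 overlap, EIF2AK2 held 1 across its start, from base -6 to base 3 with the start base as 0, and TLR3 held 1 from base -4 to base 5. DDX58 held none, but it held 1 match to the pair spaced by 1 base between bases -203 and -195. MAVS held neither, nor did any of the 3 start regions listed for ADAR. Among 35116 start regions searched over the same window, to 50 bases past the start, 3.57% held the pair spaced by 2 bases and 3.12% that spaced by 1. These are matches of letters and not measured binding sites, and DHX58 and IRF3 were not in the sequence table.

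RIG-I had the widest range of the 8 genes. DDX58 was at 28.4 FPKM in siFOXM1, 14.1 in siFOXA1, 5.69 in siRAD21, 5.61 in siBRCA2, 3.73 in siCTCF, 3.57 in siPCAT1, 3.40 in both siEZH2 and siBRCA1, 3.25 in siSMARCA4, 3.20 in the library labelled siMALAT1, 3.17 in siKDM1A, 2.43 in the control and 2.19 in siEED. The siFOXM1 and siFOXA1 libraries stood clear of the others, siRAD21 and siBRCA2 formed a second step, and the remaining libraries lay close together. Without replicates, neighbours in this order cannot be told apart from the spread between cultures. The differences from the control were 3.10 in siFOXM1 and 2.14 in siFOXA1, or 11.7 and 5.79 times the control FPKM. Those in siRAD21 (0.96) and siBRCA2 (0.95) were just under the limit of 1 on the log2(FPKM + 1) scale, although the plain FPKM ratios were 2.34 and 2.31.

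MDA5, which binds long duplexes where RIG-I binds duplex ends, followed the same 2 libraries but not the second step. IFIH1 was at 23.2 FPKM in siFOXM1, 10.3 in siFOXA1, 4.95 in siRAD21, 4.78 in the library labelled siMALAT1, 4.43 in siEZH2, 4.34 in siPCAT1, 4.18 in siSMARCA4, 4.07 in siBRCA1, 3.90 in siBRCA2, 3.82 in siKDM1A, 3.59 in siCTCF, 3.12 in the control and 2.77 in siEED. The other 10 knockdowns and the control thus spanned less than a doubling of MDA5. The differences from the control were 2.55 in siFOXM1, 1.45 in siFOXA1 and 0.25 in siBRCA2. The FPKM ratio of DDX58 to IFIH1 was 0.779 in the control and between 0.670 and 0.835 in 7 knockdowns. It was 1.04 in siCTCF, 1.15 in siRAD21, 1.22 in siFOXM1, 1.37 in siFOXA1 and 1.44 in siBRCA2, so the more abundant transcript of the pair was MDA5 in the control and RIG-I in these 5 libraries.

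LGP2 has no signalling domain of its own and modulates the other helicases. DHX58 was the lowest of the 3 helicase genes in every library, at 5.68 FPKM in siFOXM1, 1.89 in siFOXA1, 1.64 in siKDM1A, 1.07 in siEZH2, 1.03 in siCTCF, 1.02 in siBRCA2, 0.666 in the library labelled siMALAT1, 0.611 in siBRCA1, 0.588 in siRAD21, 0.559 in siPCAT1, 0.542 in the control, 0.530 in siEED and 0.447 in siSMARCA4. The siFOXM1 library again stood alone at the top, while siFOXA1 and siKDM1A were close to each other. The differences were 2.11 in siFOXM1, 0.91 in siFOXA1 and 0.78 in siKDM1A, or 10.5, 3.49 and 3.03 times the control FPKM. In siRAD21, where DDX58 was at 2.34 times its control FPKM, DHX58 was at 1.08 times.

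TLR3, the endosomal receptor, was low throughout. It was at 3.77 FPKM in siFOXM1, 2.46 in siKDM1A, 2.30 in siEZH2, 1.74 in siPCAT1, 1.70 in siSMARCA4, 1.66 in siRAD21, 1.64 in siFOXA1, 1.62 in siBRCA2, 1.49 in siBRCA1, 1.34 in the control, 0.998 in the library labelled siMALAT1, 0.953 in siCTCF and 0.724 in siEED. Unlike the 3 helicase genes, TLR3 was not second highest in siFOXA1, where it lay 0.17 from the control. The difference in siFOXM1 was 1.03, at the edge of the 2-fold limit.

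**Figure D1:**
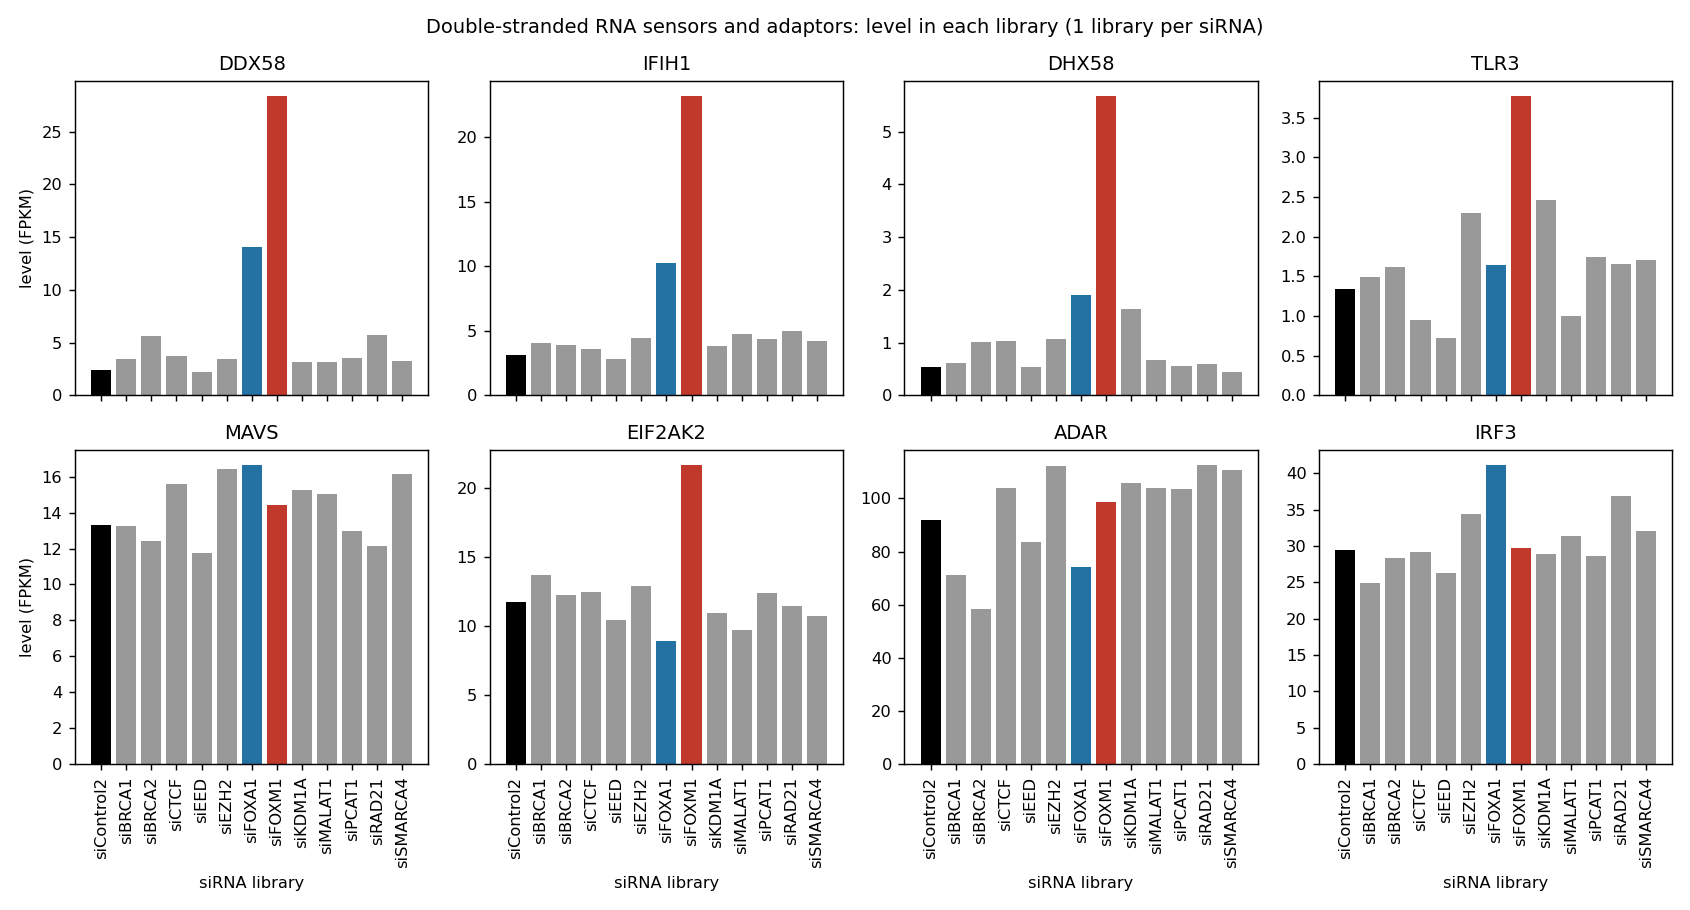
Bars give the level (FPKM, linear axis from 0, a separate scale for each gene) of the 8 genes in each of the 13 libraries, with the control in black, siFOXA1 in blue and siFOXM1 in red. DDX58 reached 28.4 FPKM in siFOXM1 and 14.1 in siFOXA1 against 2.43 in the control, whereas MAVS stayed between 11.7 and 16.7 FPKM.

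The adaptor MAVS, onto which RIG-I and MDA5 converge, was among the steadiest of the 8. It ranged from 11.7 FPKM in siEED to 16.7 in siFOXA1, with 14.4 in siFOXM1 and 13.3 in the control, and its largest difference from the control was 0.30. IRF3, the factor activated below MAVS and TLR3 by phosphorylation, ranged from 24.9 FPKM in siBRCA1 to 41.2 in siFOXA1. It was at 29.7 in siFOXM1 and 29.4 in the control, a difference of 0.01, and at 36.9 in siRAD21. The library with the highest sensors was therefore level with the control in IRF3.

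PKR parted siFOXM1 from siFOXA1. EIF2AK2 was at 21.7 FPKM in siFOXM1, 13.6 in siBRCA1, 12.9 in siEZH2, 12.4 in both siCTCF and siPCAT1, 12.2 in siBRCA2, 11.7 in the control, 11.4 in siRAD21, 10.9 in siKDM1A, 10.7 in siSMARCA4, 10.4 in siEED, 9.70 in the library labelled siMALAT1 and 8.89 in siFOXA1. It was thus highest in siFOXM1 and lowest in siFOXA1, the pair with the highest RIG-I. The differences from the control were 0.84 and -0.36, neither of them 2-fold.

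ADAR, whose gene makes a constitutive and an interferon-inducible protein form that gene-level values do not separate, was the most abundant of the 8. It was between 83.6 and 113 FPKM in 10 libraries, the control (91.8) and siFOXM1 (98.8) among them. It was lower in siFOXA1 (74.0), siBRCA1 (71.2) and siBRCA2 (58.3), with a difference of -0.65 in siBRCA2, or 0.635 times the control FPKM. The FPKM ratio of ADAR to EIF2AK2 was 7.86 in the control, 4.56 in siFOXM1, 4.77 in siBRCA2 and 5.22 in siBRCA1, and between 8.03 and 10.7 in the other 9 libraries. The ratio was low in siFOXM1 with PKR high, and in the siBRCA1 and siBRCA2 libraries with ADAR low.

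Counted over the 8 genes, 4 were at least 2-fold higher than the control in siFOXM1 (DDX58, IFIH1, DHX58 and TLR3), where 2.59% of all 15780 genes kept were. In siFOXA1 2 were (DDX58 and IFIH1), against 3.52% of all genes. In the other 10 knockdowns 0 of 80 gene and library pairs were 2-fold higher, where the share of all genes was 0.450% in siBRCA1, 0.767% in siBRCA2, 1.27% in siCTCF, 0.817% in siEED, 0.894% in siEZH2, 0.754% in siKDM1A, 0.387% in the library labelled siMALAT1, 0.323% in siPCAT1, 0.906% in siRAD21 and 0.494% in siSMARCA4. Beside shares this small, 0 of 8 is not a result about these genes. With a pseudocount of 0.1 in place of 1, siFOXA1 gained DHX58 and 3 pairs were 2-fold higher in the other knockdowns, namely DDX58 in siBRCA2 (1.17) and siRAD21 (1.19) and DHX58 in siKDM1A (1.44). The median of the 8 differences was 0.93 in siFOXM1 and 0.39 in siFOXA1, and between -0.14 and 0.32 elsewhere, while that of all genes lay between 0.0057 and 0.054.

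None of the 8 genes was at least 2-fold lower in any of the 12 knockdowns. The share of all genes that was 2-fold lower was 0.944% in siBRCA1, 0.760% in siBRCA2, 2.85% in siCTCF, 0.741% in siEED, 3.09% in siEZH2, 4.22% in siFOXA1, 3.60% in siFOXM1, 1.55% in siKDM1A, 1.57% in the library labelled siMALAT1, 1.33% in siPCAT1, 1.88% in siRAD21 and 1.97% in siSMARCA4. All 8 lay below the control in siEED, by small amounts from -0.01 to -0.44. There they also lay below the control with a pseudocount of 0.1, and below the median of the other knockdowns. All 8 lay above the control in siEZH2, from 0.13 to 0.49, and 7 of them above the median of the other knockdowns. All 12 comparisons share the 1 control library. In siBRCA1, for example, 5 of the 8 lay above the control but only 1 above the median of the other knockdowns. Set directly against siFOXA1, siFOXM1 was at least 2-fold higher in IFIH1 (1.10), DHX58 (1.21) and EIF2AK2 (1.20), with 3.03% of all genes past that limit, and 0.96 higher in DDX58. None of the 8 was 2-fold lower, against 2.57% of all genes.

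**Figure D2:**
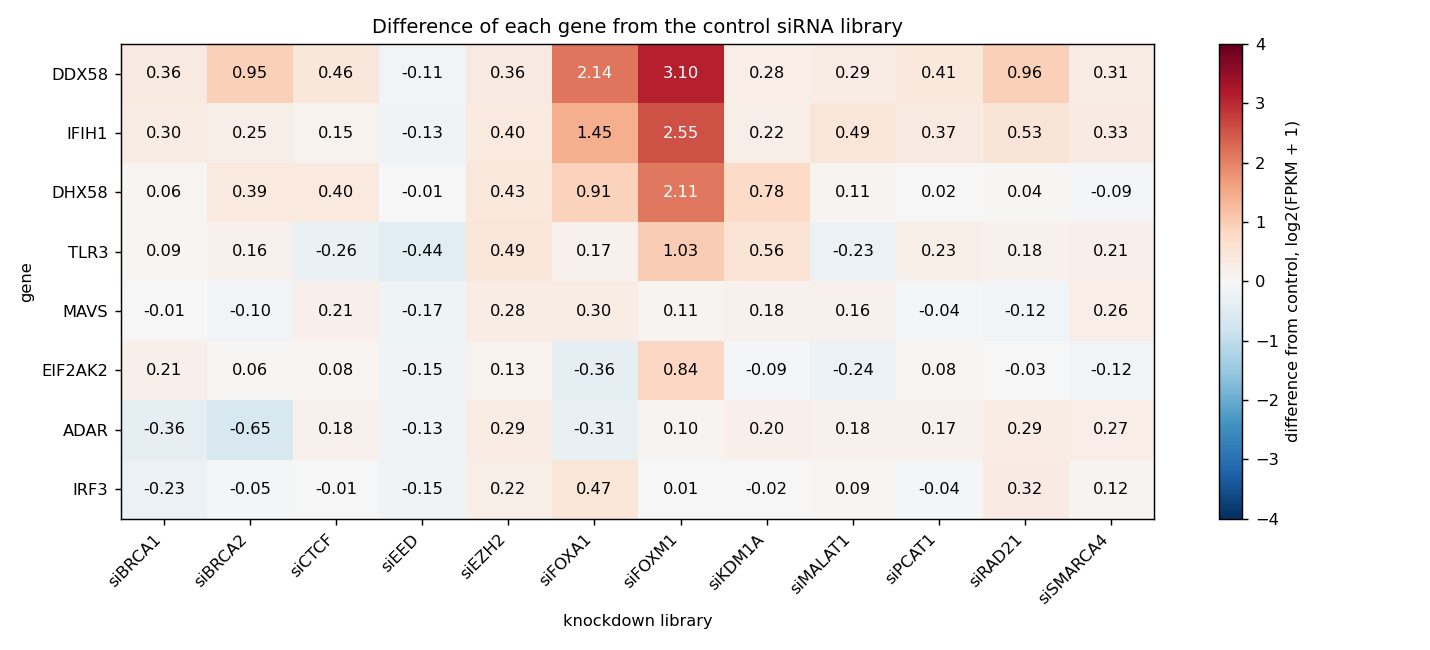
Each cell gives the difference of 1 gene (rows) in 1 knockdown library (columns) from the control on the log2(FPKM + 1) scale, red above and blue below the control. The 6 values of at least 1 are DDX58 and IFIH1 in siFOXA1 and siFOXM1, and DHX58 and TLR3 in siFOXM1.

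FOXM1 and FOXA1, the targets of the pair with the highest sensors, were read in the other libraries too. FOXM1, a transcription factor of dividing cells, was at 0.474 FPKM in siFOXM1, 1.75 in siFOXA1, 2.47 in siEZH2, 4.83 in siCTCF, 6.63 in siPCAT1, 6.73 in siSMARCA4, 7.56 in the library labelled siMALAT1, 9.32 in siBRCA1, 9.42 in siRAD21, 11.7 in siKDM1A, 13.1 in siBRCA2, 15.6 in siEED and 20.1 in the control. It was thus 2-fold lower in 9 knockdowns, and its part in the sensor levels was not tested. FOXA1, a pioneer factor of luminal cells, was at 60.6 FPKM in siFOXA1, 120 in siFOXM1 and 137 in the control.

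Regulators of RIG-I and MDA5 differed in few members. For this list and those that follow, the shares of all genes 2-fold higher or lower in each library are those given above. Of 14, 3 were 2-fold higher in siFOXM1 and 3 in siFOXA1, 1 in siBRCA2 and 0 in the other knockdowns, and none was 2-fold lower. The median difference was 0.17 in siFOXM1 and 0.16 in siFOXA1, against 0.022 and 0.018 for all genes. DDX60, a helicase-like gene linked to RIG-I signalling, was at 18.7 FPKM in siFOXM1, 4.31 in siFOXA1, 1.73 in siBRCA2 and 0.279 in the control. ZC3HAV1, the antiviral zinc finger protein ZAP, was at 40.9 FPKM in siFOXM1, 16.5 in siFOXA1 and 10.9 in the control. ZNFX1, a helicase that binds double-stranded RNA at mitochondria, was at 22.3, 15.0 and 6.12 FPKM in the same libraries. TRIM25, a ubiquitin ligase that promotes RIG-I signalling, went the other way between the pair, with 130 FPKM in siFOXA1, 48.2 in siFOXM1 and 38.4 in the control.

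The signalling genes below MAVS and TLR3 stayed near the control. Of 19, 1 was 2-fold higher in siFOXM1 and in siFOXA1, in both cases IRF7, the interferon-inducible partner of IRF3, which was at 26.4 and 14.8 FPKM against 6.71 in the control. The median differences were 0.18 and 0.10. IKBKE, an inducible kinase that phosphorylates IRF3, was at 7.45 FPKM in siFOXM1, 2.68 in siFOXA1 and 3.65 in the control. AZI2, an adaptor of the kinase TBK1, was the only one of the 19 that was 2-fold lower in any knockdown, with 6.58 FPKM in siKDM1A against 17.1 in the control. TANK, another TBK1 adaptor, ranged from 15.3 to 40.8 FPKM, and was highest in the library labelled siMALAT1.

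Among 14 other proteins that bind or respond to double-stranded RNA, the OAS genes moved most. OAS enzymes make a short nucleotide second messenger when they bind such RNA. OAS1 was at 54.0 FPKM in siFOXM1, 23.4 in siFOXA1, 5.80 in siBRCA2 and 1.28 in the control. OAS2 was at 15.9, 5.44, 1.19 and 0.152 FPKM in the same order, and OAS3 at 12.2, 6.25, 3.68 and 2.93. OAS2 passed the filter on low values only through siFOXM1 and siFOXA1. Of the 14, 3 were 2-fold higher in siFOXM1, 2 in siFOXA1 and 1 in siBRCA2, with medians of 0.13, 0.091 and 0.086. OAS3 was 2-fold lower in siEED (0.901 FPKM), siEZH2 (0.536) and siSMARCA4 (0.886). DICER1, which cuts long duplexes, was at 19.5 FPKM in siFOXM1, 12.5 in siFOXA1 and 11.5 in the control, and was highest in siSMARCA4 at 20.9.

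Genes of DNA sensing and of the other Toll-like receptors were set beside these, in lists that hold adaptors, enzymes and other partners as well as receptors. Of 9 DNA sensing genes 6 were analysed here, and 0 of 6 were 2-fold higher in siFOXM1, with a median of 0.23. In siFOXA1 1 was, TMEM173, which encodes the adaptor STING, at 14.8 FPKM against 1.51 in the control and 1.70 in siFOXM1. The exonuclease gene TREX1 was at 21.4 FPKM in siFOXM1 and 21.3 in siFOXA1 against 16.0, SAMHD1 at 18.0 and 10.4 against 12.1, and DDX41 at 34.5 and 43.7 against 46.0. The gene of the DNA sensor cGAS was not analysed here. Of 8 genes of other Toll-like receptors and their partners, 0 were 2-fold higher or lower in any knockdown, and the median was 0.082 in siFOXM1 and 0.073 in siFOXA1. Of all genes, 2.59% were 2-fold higher in siFOXM1 and 3.52% in siFOXA1. Beside such shares, a count of 0 in lists this short is not a result about these genes. Several of the receptors also stayed at about 1 FPKM or below, where this scale makes changes too small. The adaptor MYD88 was at 17.7 FPKM in siFOXM1 and 12.2 in the control, and TLR5 at 1.76 and 0.878, with its highest level, 2.60, in siFOXA1.

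Interferon genes were measurable in the pair of libraries with the highest sensors. IFNL1, a type III interferon, was at 15.7 FPKM in siFOXM1, 3.20 in siFOXA1, 0.408 in siBRCA2, 0.225 in siKDM1A, 0.220 in siRAD21 and 0.0145 in the control. IFNL2 was at 5.03 FPKM in siFOXM1 and 2.22 in siFOXA1, and IFNL3 at 4.66 and 1.69, but these genes are near-identical copies, so reads may be split between them. IFNB1, the type I interferon made first after RNA sensing, was at 4.93 FPKM in siFOXM1, 0.690 in siFOXA1, 0.295 in siBRCA2, 0.188 in siRAD21 and 0.0870 in the control. IFNB1 had too low a mean for the naming rule and was named after its values were seen. Of these 4 genes, all were 2-fold higher in siFOXM1, 3 in siFOXA1 and 0 in the other knockdowns, and the 3 type III genes passed the filter on low values only through that pair.

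Of 11 interferon receptor genes and their factors, 3 were 2-fold higher in siFOXM1 and 1 in siFOXA1, with medians of 0.47 and 0.38. IRF9, the DNA-binding part of the complex that acts on interferon-stimulated genes, was at 81.7 FPKM in siFOXM1, 17.3 in siFOXA1 and 4.28 in the control. IRF1, another factor of that family, was at 9.87, 5.27 and 3.17 FPKM. IFNAR1, a chain of the type I interferon receptor, was at 5.74 FPKM in siFOXM1 and 12.3 in the control (-0.98).

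Against the 1 control library, the effectors reached far higher folds than the sensors, and in more libraries. That control was the lowest of the 13 libraries in several effectors, such as IFIT1, IFIT2, OASL and IFI6, though not in all, as in MX1. A low control widens every difference from it, and the effectors were not set against the other knockdowns. Of 16 interferon-stimulated effector genes, 14 were 2-fold higher in siFOXM1, 12 in siFOXA1, 11 in siBRCA2, 8 in siBRCA1, 7 in siRAD21, 5 each in siCTCF and siKDM1A, 4 in siEZH2, 1 each in siEED and siSMARCA4, and 0 in siPCAT1 and the library labelled siMALAT1. Their median difference was 5.21 in siFOXM1, 3.85 in siFOXA1, 1.72 in siBRCA2, 0.95 in siBRCA1 and 0.90 in siRAD21. The 16 include MX2 and IFI44L, which did not pass the filter on low values, whereas the shares of all genes hold only genes that did. MX2, at 2.23 FPKM in siFOXM1, was among the 14 there. In siBRCA1, OASL was at 8.94 FPKM against 0.831 in the control and IFIT1 at 12.96 against 2.10, with DDX58 at 3.40 against 2.43 and IFIH1 at 4.07 against 3.12. In siBRCA2, IFIT1 was at 23.8 FPKM with DDX58 at 5.61, and in siRAD21 IFIT1 was at 10.5 with DDX58 at 5.69. The order of these libraries thus differed between IFIT1 and RIG-I, while siFOXM1 and siFOXA1 led both.

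**Figure D3:**
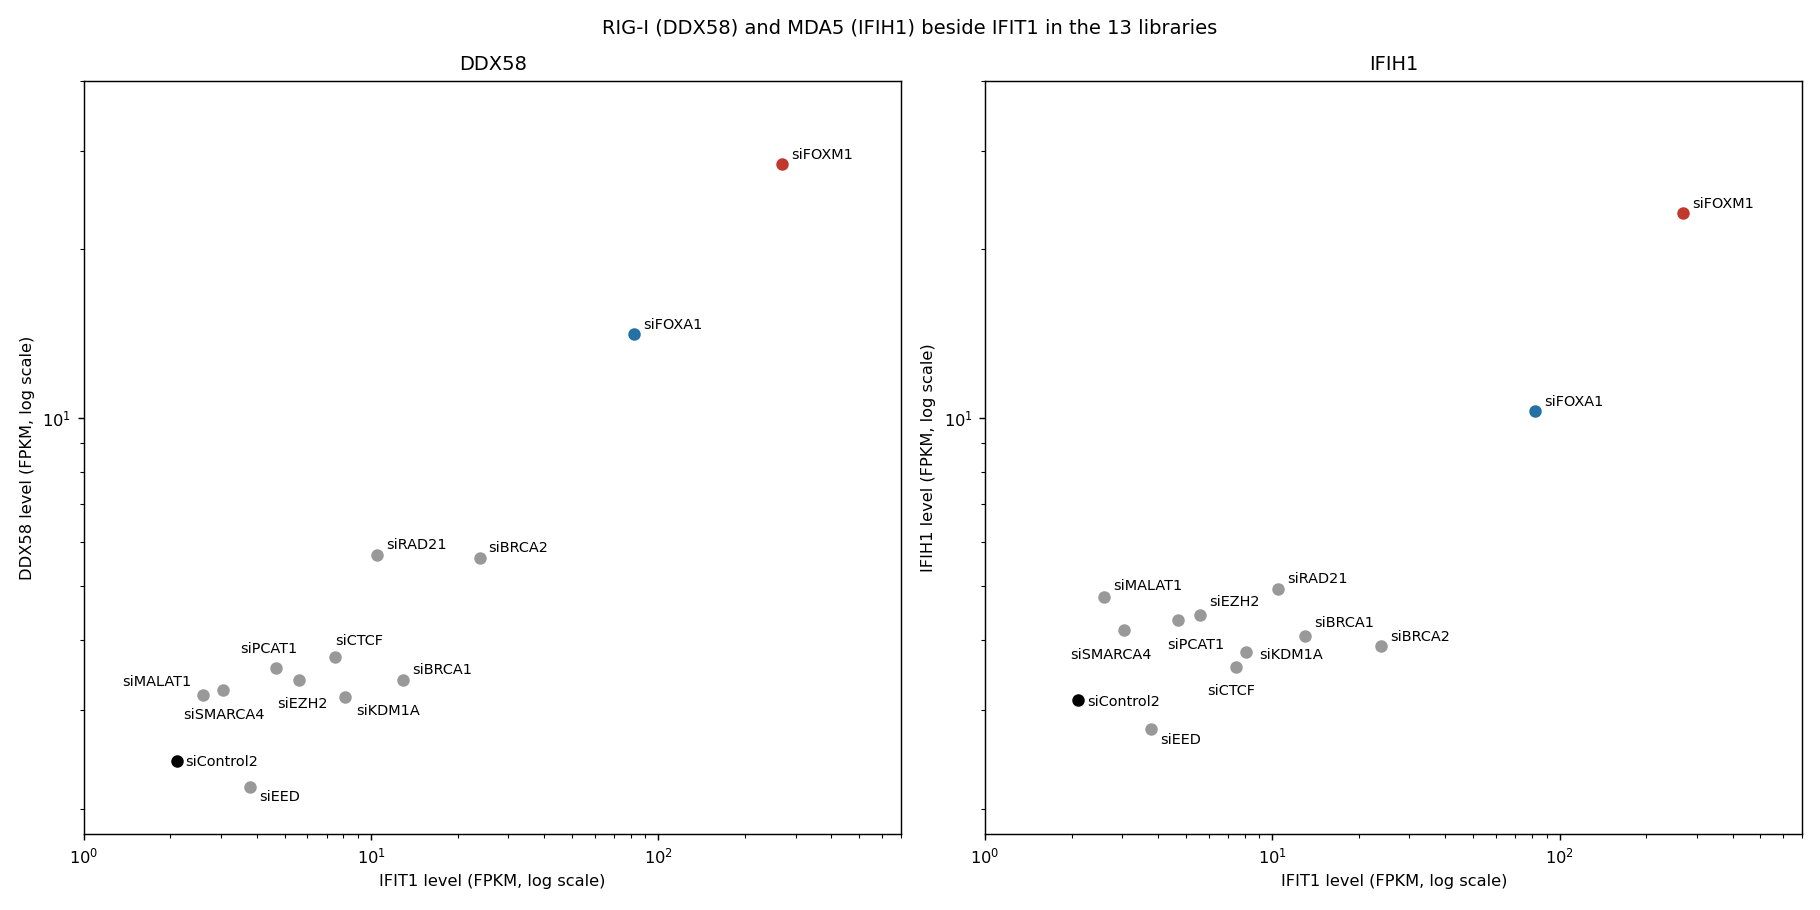
Each point is 1 library, with the level of the interferon-stimulated gene IFIT1 on the x axis and of DDX58 (left) or IFIH1 (right) on the y axis, all in FPKM on log axes. IFIT1 ran from 2.10 FPKM in the control to 23.8 in siBRCA2 while IFIH1 stayed between 2.77 and 4.95 in the control and the 10 knockdowns other than siFOXM1 and siFOXA1.

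PKR acts by phosphorylating eIF2, and a few genes of the response below eIF2 kinases were higher in most knockdowns. Of 13 such genes, 4 were 2-fold higher in siEED and siEZH2, 3 in siBRCA2, siFOXM1, siKDM1A, siRAD21 and siSMARCA4, 2 in siBRCA1, siCTCF and siFOXA1, and 0 in siPCAT1 and the library labelled siMALAT1, and none was 2-fold lower. ATF3, a stress-induced factor, was at 53.1 FPKM in siFOXM1, 49.2 in siEED, 46.6 in siFOXA1 and 8.76 in the control. It was 2-fold higher in 10 of the 12 knockdowns, with a median of 37.8 FPKM over the 13 libraries. PPP1R15A, the phosphatase subunit that reverses eIF2 phosphorylation, was at 9.63 FPKM in siFOXM1, 6.63 in siFOXA1, 5.63 in siEED and 2.07 in the control. DDIT3, a stress-induced factor, was at 80.2 FPKM in siFOXM1, 63.4 in siFOXA1 and 32.0 in the control, and was 2-fold higher in 6 knockdowns. These 3 genes were highest in siFOXM1 and lowest in the control. A low control widens every difference from it, and these genes were not set against the other knockdowns. CHAC1, a target of ATF4, was at 12.6 FPKM in siEED, 2.76 in siFOXM1 and 2.19 in the control, and ASNS at 73.6, 41.5 and 33.4. The siEED library, with the lowest RIG-I and MDA5, thus had the highest CHAC1 and ASNS.

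Some feedback inhibitors were higher in the same pair. Of 8, 3 were 2-fold higher in siFOXM1 (TNFAIP3, USP18 and TRIM21) and 2 in siFOXA1 (TNFAIP3 and NFKBIA), with medians of 0.69 and 0.50, and 0 in the other knockdowns. TNFAIP3, which restrains NF-kappaB signalling, was at 7.28 FPKM in siFOXM1, 3.54 in siFOXA1 and 0.993 in the control. USP18, which limits signalling from the type I interferon receptor, was at 28.4, 21.0 and 11.05 FPKM.

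**Figure D4:**
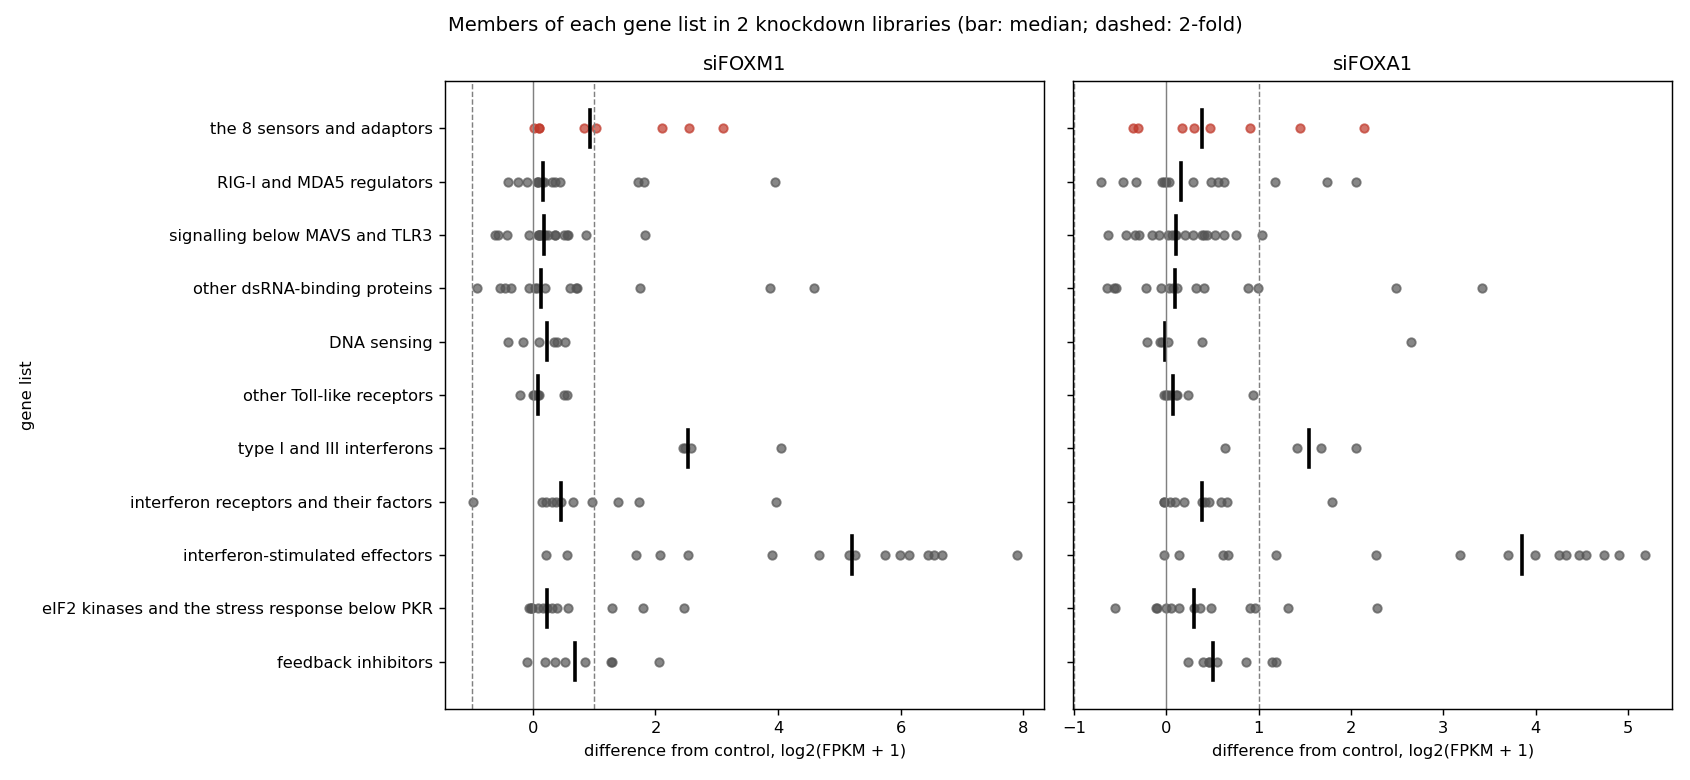
Each point is 1 gene of the list named at the left, placed by its difference from the control on the log2(FPKM + 1) scale in siFOXM1 (left) and siFOXA1 (right), with a bar at the list's median and dashed lines at 2-fold. The 8 sensors and adaptors are in red, with medians of 0.93 and 0.39, and the effectors lie farthest right, with medians of 5.21 and 3.85.

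Genes with profiles like these were sought among all genes kept, for the 5 of the 8 whose log2(FPKM + 1) ranged over at least 1. Each profile was centred on its own median over the 13 libraries, and likeness was the mean absolute difference between profiles, so smaller is more alike. For DDX58 the nearest were IFIT1B (0.18), IFNL2 (0.20) and an entry with only the Ensembl identifier ENSG00000225886 (0.22), against 0.53 for a flat profile, and IFIH1 was the 5th nearest (0.23). For IFIH1 they were PARP10, GBP1 and TNFSF10 (0.14 to 0.15, flat 0.38), and for DHX58 TRIM22, NLRC5 and PARP10 (0.16 to 0.18, flat 0.38). For TLR3 they were MPZL1, TBC1D9 and SAMD8 (0.15, flat 0.26), and for EIF2AK2 TCEAL1, FFAR2 and ZNF260 (0.12, flat 0.18). The nearest genes thus improved less on a flat line for these 2 than for DDX58, IFIH1 and DHX58. IFIT1B and IFNL2 have close gene copies, so their reads may be split with them. Without siFOXM1 and siFOXA1, a choice made after the values were seen, the nearest 3 to DDX58, IFIH1, DHX58 and EIF2AK2 were other genes, and only MPZL1 stayed among the nearest 3 to TLR3.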

How the data were processed

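Per the labels' protocols, LNCaP-abl cells were transfected with siRNA pools and harvested after 72 h, and RNA libraries were made with the TruSeq kit. Reads were aligned with TopHat and quantified with Cufflinks on hg19 (named without versions), per the submitters' processing notes. The authors deposited log2 FPKM for 22613 entries per library. The lowest value was the log2 of 0.1, so the deposited values were read as log2(FPKM + 0.1), and their sorted values differed by at most 0.0562 between libraries, so the libraries share nearly 1 distribution. Both statements were read from the values and are recorded in no label.

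Values were returned to FPKM and expressed as log2(FPKM + 1). Genes with a mean of at least 0.5 FPKM were kept and 759 small RNA entries left out, which left 15780. All 8 members were kept, also without siFOXM1 and siFOXA1. Python 3.11.15 with pandas 2.3.3 was used, and the calls were tested on simulated data.

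The members and lists were chosen with earlier results of these data known. List symbols were matched to the entries directly or, for 4 genes, by another symbol in RefSeq. Named genes were the members, the targets, up to 4 genes per list with the widest range or 2-fold from the control in 3 or more knockdowns, and the 3 nearest profiles. A few others were named after their values were seen, namely IFNB1, MX1, MX2, IFI44L and the markers KLK2 and KLK3. The leukocyte, fibroblast and endothelial lists were only partly matched. Fibroblast markers summed to 0.523 to 1.85 FPKM and the 1 endothelial marker matched to 0.637 to 1.01 FPKM. A few listed genes are not reported here.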

Additional observations from a re-analysis of the deposited data

How the results depend on the processing

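The direction and 2-fold status of DDX58 and IFIH1 in siFOXM1 and siFOXA1, and of DHX58 in siFOXM1, held under all 5 alternatives: no filter on low values, a pseudocount of 0.1, quantile normalization, differences centred on their median, and the median of the other 11 knockdowns as reference. Leaving out the filter could not change the difference of any gene. Quantile normalization could hardly do so, because the libraries already shared nearly 1 distribution. With those settings included, 104 of 110 recomputed values stayed within 1.5 times or 1.5-fold of the reported one. None of the 2-fold differences changed sign. Some smaller differences did. TLR3 in siFOXA1, which was not 2-fold, went from 0.17 to -0.01 against the median of the other knockdowns. In siFOXM1, MAVS went from 0.105 to -0.057 and ADAR from 0.105 to -0.072 against that median. IRF3 in siFOXM1 went from 0.013 to -0.0086 with differences centred on their median. Some differences in the other knockdowns changed sign too, such as DDX58 in siBRCA1, from 0.357 to -0.055. With a pseudocount of 0.1 the difference of DHX58 was 3.17 in siFOXM1 and 1.64 in siFOXA1, and the pairs at least 2-fold higher in the other 10 knockdowns went from 0 to 3. With that pseudocount 782 genes in siFOXM1 and 963 in siFOXA1 were 2-fold higher, in place of 409 and 555. Against the other knockdowns 227 genes were 2-fold higher in siFOXM1, and TLR3 was no longer 2-fold higher there (0.85), which leaves 3 of 8. DDX58 in that library was between 2.74 and 3.49 over the settings. No paired analysis was possible because each group has 1 library. Read depth is unknown, so no counting limits are given.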
